A study of Mus musculus with 6 samples.

Results

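Collagens and laminins are the main structural families of the extracellular matrix. The members were defined by gene symbol, as every gene with a probe set of its own whose symbol names a collagen alpha chain (Col followed by type and chain number) or a laminin alpha, beta or gamma chain. By this rule 54 of the 19938 genes tested were members, 44 collagens and 10 laminins. They were read as an early fibrosis readout in liver tissue of C57BL/6 mice, an inbred laboratory strain, fed a regular diet (RD) or a high fat diet (HFD) for 2 days. Each diet had 3 biological replicates with an array each. Each title includes NI as well, a code without explanation in the labels, and diet composition was not analysed here. A value is the deposited log2 expression of a probe set, the group of array probes that reads a gene.

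Collagens are triple helices of 3 alpha chains. Fibrillar types such as I and III bear tensile load, network-forming type IV is the sheet of basement membranes, and other types decorate fibrils or link matrix to cells. Laminins are cross-shaped trimers of an alpha, a beta and a gamma chain that bind cells to the basement membrane through integrins and dystroglycan. In fibrosis of the liver, stellate cells of the sinusoid wall become myofibroblasts and deposit fibrillar collagen. Basement membrane chains are made mainly around vessels, bile ducts and sinusoids.

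No collagen or laminin gene was called higher after 2 days of HFD, and 2 were called lower. The falls were those of Col18a1, the core chain of a basement membrane proteoglycan, and Lama3, an alpha chain of epithelial laminin. In limma with Benjamini-Hochberg adjustment over all genes, 2 of 54 members (3.70%) had an adjusted p under 0.05, against 5.35% of all genes tested, so the share of members called was not above that of the table as a whole. In the higher direction the count was 0, against 3.11% of all genes, and 1 member was higher at an unadjusted p under 0.05. In the lower direction it was 2, against 2.24% of all genes, with 4 lower at an unadjusted p under 0.05. Together 5 members (9.26%) had such a p, against 19.7% of all genes. Col18a1 and Lama3 kept their call whichever array was left out. Quantile normalization, median centring, array weights or leaving out RD replicate 3 added Col12a1 as a riser.

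Most differences were small. In 48 of 54 members the log2 difference, HFD minus RD, lay within 0.2 of zero, and the 95% interval lay within 0.5 in 50. The same held for 15957 and 17567 of the 19938 genes tested, so small differences were common in the whole table. By level, 30 of the 54 members lay above the median of all genes, 7.54. Whether the dimmer members were detected was not tested. The median was -0.05, beside a median of 0.00 for all genes. Negative differences were seen in 38 members (70.4%), against 50.8% of all genes. The values of the diets did not overlap in 10 members (18.5%), 2 higher and 8 lower in HFD, against 25.7% of all genes (14% higher and 11.7% lower).

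**Figure D1:**
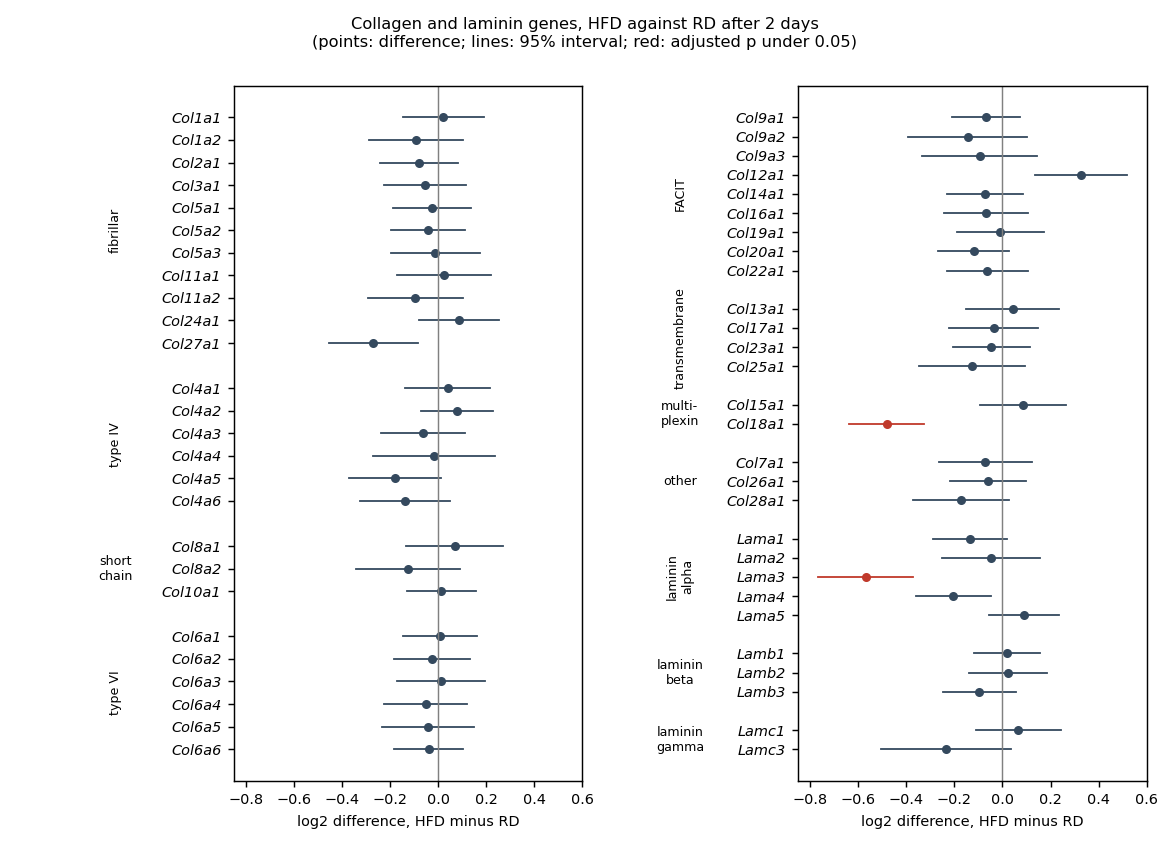
Log2 difference (HFD minus RD, x axis) of each of the 54 collagen and laminin genes by class, with points for the difference and lines for its 95% interval from limma, 3 arrays per diet. Only Col18a1 at -0.48 and Lama3 at -0.57 are drawn in red for an adjusted p under 0.05, and Col12a1 at 0.33 lies farthest to the right.

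The highest and lowest values of the members gathered on single arrays. RD replicate 3 held the highest value of 28 members (51.9%), against 19.4% of all genes, and the lowest of 0. HFD replicate 1 held the lowest value of 22 members (40.7%), against 20.5% of all genes. The median deviation of the members from their own means was 0.03, -0.04 and 0.09 on RD replicates 1 to 3 and -0.08, -0.04 and 0.04 on the HFD arrays, while that of all genes ran from -0.01 to 0.01. The median difference of the members was -0.02 without RD replicate 3 and also -0.02 without HFD replicate 1. It was -0.08 without RD replicate 2 or HFD replicate 3. The part of this pattern in the share of negative differences was not tested.

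**Figure D2:**
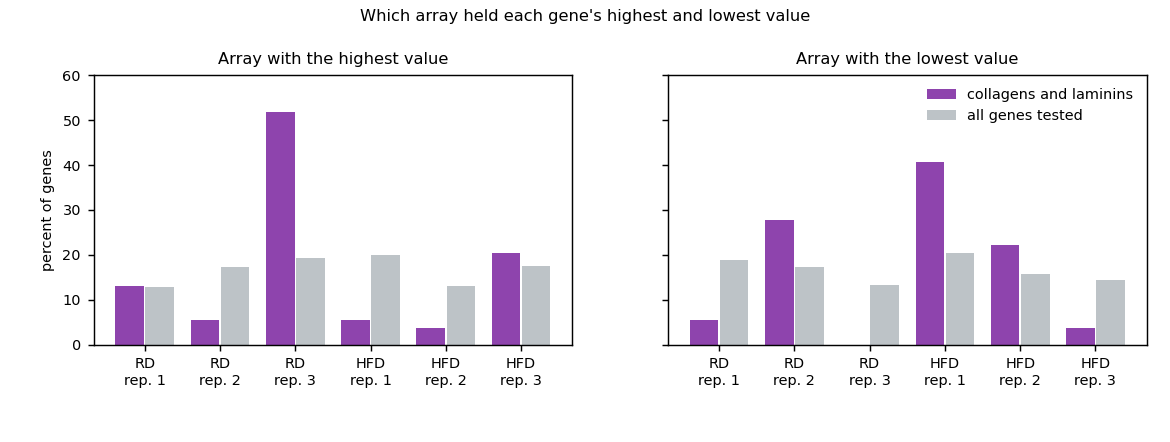
Percent of genes (y axis) whose highest value (left) or lowest value (right) fell on each of the 6 arrays, for the 54 collagens and laminins and for all 19938 genes tested. RD replicate 3 held the highest value of 51.9% of the members and HFD replicate 1 the lowest of 40.7%.

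Col18a1 (probe set 10370259) encodes type XVIII collagen, a multiplexin that carries heparan sulfate in basement membranes, is made in quantity by hepatocytes and releases the fragment endostatin. Its log2 expression was 11.46, 11.60 and 11.44 in RD and 11.02, 11.01 and 11.02 in HFD. All RD values lay above all HFD values, and the HFD arrays were nearly identical. The difference was -0.48 ± 0.07 (SE; limma adjusted p = 0.00733), from 11.50 ± 0.09 to 11.02 ± 0.004 (SD, n = 3 each), which is 1.4-fold lower. Without 1 array it stayed between -0.51 and -0.43 (adjusted p up to 0.0294). Col15a1 (probe set 10504775), the other multiplexin and a component of vascular and muscle basement membranes, had 7.75, 7.67 and 7.74 in RD and 7.68, 7.82 and 7.92 in HFD, which overlap, and its difference of 0.09 ± 0.08 did not pass (adjusted p = 0.617). Of 10 hepatocyte markers 0 passed in limma and 0 had an unadjusted p under 0.05, against 5.35% and 19.7% of all genes. Their median difference was 0.00, their mean log2 level ran from 14.05 to 14.11 over the 6 arrays, and the 2 with the smallest p were Tat (-0.13 ± 0.07, adjusted p = 0.392) and Cps1 (-0.05 ± 0.06, adjusted p = 0.692). Values did not overlap in 3 of the 10, Tat, Cps1 and Ahsg, all lower in HFD (30%, against 11.7% of all genes). The marker levels lay near the highest value of any probe set, 14.86, and a limit of the signal there was not tested. In whole tissue, fewer cells of a type and less RNA per cell cannot be told apart.

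RefSeq gives Col18a1 2 starts 52825 bases apart on the minus strand of chromosome 10. As background, the downstream start gives the longer forms found in liver and the upstream start the short form of many basement membranes. The table holds 1 value for the gene, so the starts were not told apart here. The 250 bases before each start are shown because this is the collagen that passed the test, with those of Col1a2, a chain of type I collagen that did not, for comparison. RefSeq sequences of GRCm38.p6 were used, at chr10:77113706-77113955 (minus strand) for the downstream start, chr10:77166531-77166780 (minus strand) for the upstream start and chr6:4505368-4505617 (plus strand) for Col1a2, each written 5′ to 3′ with GC boxes and CCAAT boxes on either strand in capitals.
Col18a1 downstream start: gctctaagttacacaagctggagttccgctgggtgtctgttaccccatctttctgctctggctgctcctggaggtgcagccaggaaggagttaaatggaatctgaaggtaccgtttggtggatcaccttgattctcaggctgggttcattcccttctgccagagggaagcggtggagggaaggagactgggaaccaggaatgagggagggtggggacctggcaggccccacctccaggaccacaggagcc
Col18a1 upstream start: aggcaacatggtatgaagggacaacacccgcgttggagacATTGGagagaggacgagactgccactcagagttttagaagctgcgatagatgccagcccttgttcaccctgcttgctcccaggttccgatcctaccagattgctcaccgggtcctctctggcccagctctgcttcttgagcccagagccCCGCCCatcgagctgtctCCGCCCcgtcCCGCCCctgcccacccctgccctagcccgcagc
Col1a2: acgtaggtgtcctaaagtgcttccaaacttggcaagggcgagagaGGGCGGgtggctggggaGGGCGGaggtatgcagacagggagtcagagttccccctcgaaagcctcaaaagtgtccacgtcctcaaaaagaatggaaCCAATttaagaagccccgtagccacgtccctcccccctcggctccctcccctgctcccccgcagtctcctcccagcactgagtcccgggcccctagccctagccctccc
The GC box was searched as GGGCGG and the CCAAT box as CCAAT, on both strands. The upstream window of Col18a1 held 3 GC boxes and 1 CCAAT box, that of Col1a2 held 2 and 1, and the downstream window of Col18a1 held neither. Among all 32851 windows of this length, 32.7% held a GC box and 33.8% a CCAAT box. The sterol regulatory element TCACNCCAC, present in 1.05% of all windows, was in none of these 3, nor were the TATA box TATAAA (12.4%), the AP-1 site TGANTCA (6.75%) and the C/EBP site TTGCNNAA (9.56%). The SMAD element CAGAC, present in 42.2% of all windows, occurred once in the downstream window of Col18a1 and once in that of Col1a2. These are matches of letters, not measured binding.

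Lama3 (probe set 10453939) encodes the alpha chain that pairs with the product of Lamb3 in a laminin that anchors epithelia. Its log2 expression was 7.70, 7.47 and 7.71 in RD and 7.001, 7.01 and 7.15 in HFD. Every HFD value lay below every RD value, and RD replicate 2 was the lowest of its diet. The difference was -0.57 ± 0.09 (SE; adjusted p = 0.00984), 1.48-fold lower in HFD, and without 1 array it stayed between -0.65 and -0.53 (adjusted p up to 0.0477). Its level lay below the median of all genes, and detection calls were not used here. Its partner Lamb3 (probe set 10352838) had 7.38, 7.33 and 7.41 in RD and 7.21, 7.31 and 7.32 in HFD. These did not overlap either, but the difference of -0.10 ± 0.07 did not pass (adjusted p = 0.491).

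Bile duct epithelium, a site of epithelial laminin, was marked by 6 measured genes, and 5 of these rose while Lama3 fell. The share called was 83.3%, against 5.35% of all genes. Epcam, a surface adhesion molecule, rose by 0.54 ± 0.10 (SE), the keratin Krt19 by 0.70 ± 0.14, Krt7 by 0.33 ± 0.07, the transcription factor Sox9 by 0.29 ± 0.06 and the chloride channel Cftr by 0.29 ± 0.07. Each had non-overlapping values, with an adjusted p from 0.0189 to 0.0438. Epcam, Krt7 and Cftr lay below the median level of all genes, 7.54, with RD means of 6.16, 7.18 and 4.50. When only genes above that median were tested, 3 of the 6 markers remained and 2 were called higher. Between 0 and 1 of these calls held when an array was left out, 0 without RD replicate 1 or HFD replicate 1, and 1 held with the replicate block, a term for the replicate number. The call of Cftr was also lost with an intensity trend (adjusted p = 0.0604). The sixth marker Onecut1, which hepatocytes also express and which is named after its values were seen, had a difference of -1.46 ± 0.41 (adjusted p = 0.0866). The mean log2 level of the list was 7.51 to 7.65 on the RD arrays and 7.48 to 7.84 on the HFD arrays. The part of bile duct cells in the laminin values was not tested.

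**Figure D3:**
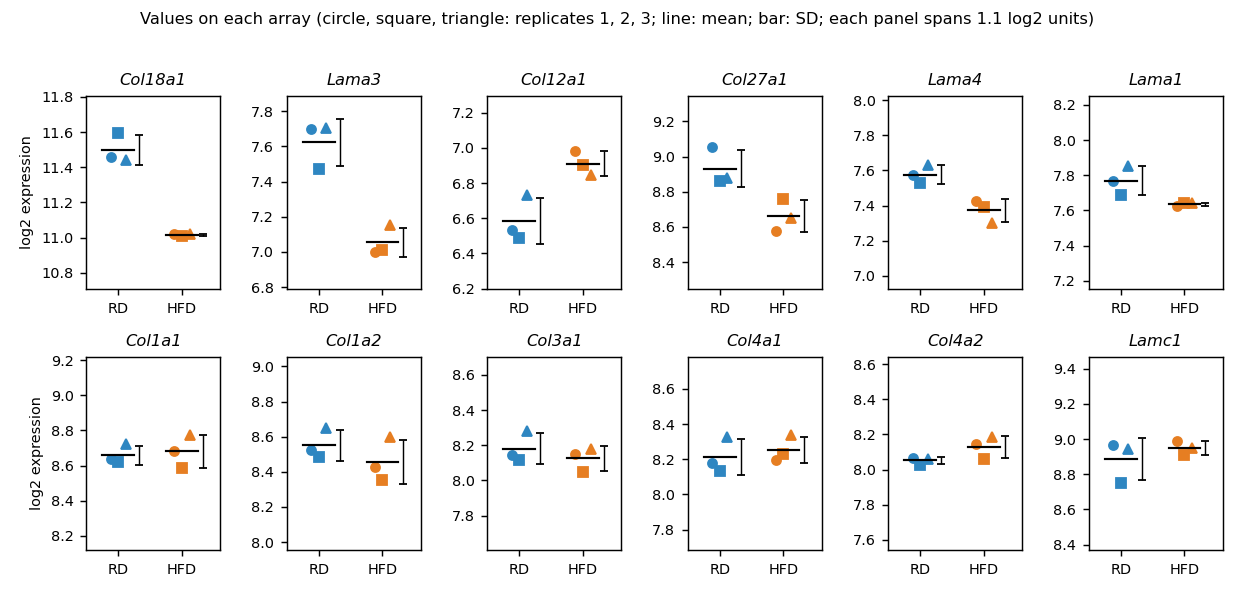
Log2 expression (y axis) of 12 collagen and laminin genes on each array, with circles, squares and triangles for replicates 1, 2 and 3, a line for the mean of each diet and a bar for its SD (n = 3). Col18a1 and Lama3 separate by diet, Col12a1 lies higher in HFD without passing the test, and Col1a1, Col1a2, Col3a1 and Col4a1 overlap.

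The fibrillar collagens, which form scar in fibrosis, gave no call. All 11 were measured, 3 with a positive and 8 with a negative difference, and their median was -0.04. Col1a1 (probe set 10380419), the major chain of type I collagen, had 8.64, 8.62 and 8.72 in RD and 8.68, 8.58 and 8.77 in HFD. The diets overlapped, and the difference of 0.02 ± 0.07 (SE) had a 95% interval of -0.15 to 0.19, or 0.904 to 1.14-fold (adjusted p = 0.911). Its partner Col1a2 (probe set 10536220) had 8.52, 8.48 and 8.65 in RD and 8.43, 8.35 and 8.60 in HFD. HFD replicate 3 lay within the RD values, and the difference was -0.09 ± 0.08 with an interval of -0.29 to 0.10 (adjusted p = 0.618). Col3a1 (probe set 10346015), the type III chain laid down early in scars, had 8.14, 8.12 and 8.28 in RD and 8.15, 8.05 and 8.18 in HFD, and its difference of -0.05 ± 0.07 had an interval of -0.22 to 0.12 (adjusted p = 0.757). The upper ends of the intervals were 1.14-fold for Col1a1 and 1.08-fold for Col3a1.

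Type V collagen, which sets the diameter of type I fibrils, did not pass in any of its 3 chains. Col5a1 (probe set 10470462) had 7.82, 7.81 and 7.86 in RD and 7.70, 7.83 and 7.88 in HFD, a difference of -0.03 ± 0.07. Col5a2 (probe set 10354309) had 6.90, 6.77 and 6.86 in RD and 6.79, 6.76 and 6.85 in HFD, a difference of -0.04 ± 0.07, and Col5a3 (probe set 10591281) had 7.73, 7.59 and 7.83 in RD and 7.63, 7.72 and 7.76 in HFD, a difference of -0.01 ± 0.08. All 3 overlapped between diets, with an adjusted p from 0.789 to 0.96. The fibrillar gene with the largest difference was Col27a1 (probe set 10505374), best known from cartilage, with 9.05, 8.86 and 8.88 in RD and 8.58, 8.76 and 8.65 in HFD. Its RD values all lay above its HFD values, but the difference of -0.27 ± 0.08 did not pass (adjusted p = 0.106).

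Type IV collagen, the network of basement membranes, did not pass in any of its 6 chains, of which 2 had a positive and 4 a negative difference. Col4a1 and Col4a2, the ubiquitous chains, start 21 bases apart on opposite strands in RefSeq (GRCm38.p6). Col4a1 (probe set 10576973) had 8.18, 8.13 and 8.32 in RD and 8.19, 8.23 and 8.34 in HFD, and Col4a2 (probe set 10570068) had 8.07, 8.03 and 8.06 in RD and 8.14, 8.06 and 8.19 in HFD. Both overlapped between diets, at 0.04 ± 0.08 (adjusted p = 0.832) and 0.08 ± 0.06 (adjusted p = 0.575). Their intervals were -0.14 to 0.22 and -0.07 to 0.23.

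The tissue-restricted type IV chains were lower by up to 0.18 without passing. Col4a3 (probe set 10347807) had 7.07, 6.92 and 7.10 in RD and 6.89, 6.96 and 7.04 in HFD, and Col4a4 (probe set 10356088) had 7.29, 6.94 and 7.11 in RD and 7.02, 6.99 and 7.28 in HFD. Their differences of -0.06 ± 0.08 and -0.02 ± 0.11 had an adjusted p of 0.721 and 0.959, and that of Col4a4 turned positive under quantile normalization or median centring. Col4a5 (probe set 10602105) had 6.85, 6.72 and 6.87 in RD and 6.49, 6.68 and 6.72 in HFD, and Col4a6 (probe set 10607012), its neighbour on the opposite strand of the X chromosome, had 6.62, 6.43 and 6.70 in RD and 6.41, 6.45 and 6.48 in HFD. The diets overlapped in both, with 1 HFD value of Col4a5 and 2 of Col4a6 above the lowest RD value, and the differences were -0.18 ± 0.08 (adjusted p = 0.286) and -0.14 ± 0.08 (adjusted p = 0.413).

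Type VI collagen, the beaded filaments between cells and fibrils, did not pass in any chain, with differences from -0.05 to 0.01 over its 6 chains. Col6a1 (probe set 10370210) had 8.07, 8.12 and 8.16 in RD and 8.14, 8.05 and 8.18 in HFD, Col6a2 (probe set 10370180) had 8.07, 7.96 and 8.13 in RD and 8.002, 8.01 and 8.06 in HFD, and Col6a3 (probe set 10356520) had 7.46, 7.61 and 7.70 in RD and 7.61, 7.54 and 7.65 in HFD. These main chains differed by 0.01 ± 0.07, -0.03 ± 0.07 and 0.01 ± 0.08 (SE), with overlapping diets and signs that changed under some alternatives. Col6a4 (probe set 10596428) had 6.51, 6.37 and 6.55 in RD and 6.38, 6.39 and 6.50 in HFD and Col6a6 (probe set 10596383) had 7.82, 7.74 and 7.83 in RD and 7.76, 7.73 and 7.78 in HFD, and both overlapped between diets. Col6a5 and Col6a6 were each read by 2 probe sets. For Col6a6 the difference was -0.04 ± 0.06 in the brighter one and 0.04 ± 0.08 in the dimmer one (10596394), and neither passed. The brighter one of Col6a5 (10596409) had 6.87, 6.75 and 6.83 in RD and 6.62, 6.86 and 6.85 in HFD, a difference of -0.04 ± 0.08, while its dimmer one (10596403) was higher in HFD by 0.29 ± 0.10 without passing (adjusted p = 0.158).

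The collagens that coat fibrils held the member with the largest positive difference. Col12a1 (probe set 10595211), which links fibrils to their surroundings and is a gene of mechanically loaded tissue, had 6.53, 6.49 and 6.73 in RD and 6.98, 6.90 and 6.84 in HFD. Every HFD value lay above every RD value, with RD replicate 3 closest to them. The difference of 0.33 ± 0.08, 1.25-fold, did not pass (adjusted p = 0.0649), but passed without RD replicate 3 (0.40, adjusted p = 0.0438), under quantile normalization (adjusted p = 0.0436), median centring (adjusted p = 0.0447) and array weights (adjusted p = 0.0491). Over all 13 alternatives that kept the gene its adjusted p ran from 0.0436 to 0.196. Its level, with means of 6.58 in RD and 6.91 in HFD, lay below the median of all genes, and detection calls were not used. Col14a1 (probe set 10424140), a related chain made by stellate cells and fibroblasts, had 10.29, 10.30 and 10.40 in RD and 10.32, 10.25 and 10.20 in HFD and overlapped between diets (-0.07 ± 0.07, adjusted p = 0.626). Col20a1 (probe set 10479514) had 7.38, 7.47 and 7.48 in RD and 7.36, 7.29 and 7.32 in HFD, without overlap but with a difference of -0.12 ± 0.06 (adjusted p = 0.362). Col28a1 (probe set 10543082), a type known from nerve, had 6.24, 6.17 and 6.42 in RD and 6.00, 6.12 and 6.20 in HFD. HFD replicate 3 overlapped the RD values, and the difference was -0.17 ± 0.09 (adjusted p = 0.33).

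The remaining 19 collagens, among them the cartilage chains Col2a1, Col9a1, Col9a2, Col9a3, Col10a1, Col11a1 and Col11a2, the fibrillar Col24a1, the short chain collagens Col8a1 and Col8a2, the membrane-spanning Col13a1, Col17a1, Col23a1 and Col25a1, the anchoring fibril chain Col7a1, and Col16a1, Col19a1, Col22a1 and Col26a1, all lay within 0.2 of zero. Their differences ran from -0.14 (Col9a2) to 0.09 (Col24a1). None passed, none had an unadjusted p under 0.05, and 1, Col9a1, had non-overlapping values, lower in HFD. The smallest adjusted p among them was 0.530.

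Of the other alpha laminins, Lama4 (probe set 10362538), a chain of endothelial basement membranes, had 7.57, 7.53 and 7.63 in RD and 7.43, 7.39 and 7.30 in HFD. All HFD values lay below all RD values, and the difference was -0.20 ± 0.07 with an interval of -0.36 to -0.05 (adjusted p = 0.138). Lama1 (probe set 10446473), prominent in embryonic basement membranes, had 7.77, 7.69 and 7.85 in RD and 7.62, 7.64 and 7.64 in HFD, also without overlap (-0.13 ± 0.07, adjusted p = 0.326). Lama5 (probe set 10490384), the widespread alpha chain of adult epithelium and vessels, had 7.57, 7.65 and 7.62 in RD and 7.71, 7.66 and 7.73 in HFD, the one alpha chain with all HFD values above RD (0.09 ± 0.06, adjusted p = 0.5). Lama2 (probe set 10368409), the muscle and nerve chain, had 6.90, 6.90 and 7.12 in RD and 6.99, 6.80 and 6.99 in HFD and overlapped (-0.05 ± 0.09).

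The beta and gamma chains that most laminins share did not pass. Lamb1 (probe set 10395163) had 7.52, 7.52 and 7.57 in RD and 7.54, 7.58 and 7.55 in HFD, Lamb2 (probe set 10588942) had 8.28, 8.12 and 8.25 in RD and 8.23, 8.19 and 8.29 in HFD, and Lamc1 (probe set 10358816), the common gamma chain, had 8.97, 8.75 and 8.94 in RD and 8.99, 8.91 and 8.95 in HFD. Their differences were 0.02 ± 0.06, 0.02 ± 0.07 and 0.07 ± 0.08 (SE), with the diets overlapping in each. The largest adjusted p was 0.906 and the smallest 0.713. Lamc3 (probe set 10471216), a less common gamma chain, had 8.03, 7.72 and 7.91 in RD and 7.57, 7.497 and 7.88 in HFD, a difference of -0.23 ± 0.12 with the widest error of the laminins (adjusted p = 0.328).

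Among 105 other genes of the matrix, taken from 6 lists, 9 rose and 1 fell (9.52%, against 5.35% of all genes), with a median of 0.06. Dropping RD replicates 1, 2 and 3 in turn gave 3, 3 and 5 risers, and dropping HFD replicates 1, 2 and 3 gave 4, 3 and 8. The count of risers was 5 with the replicate block. The fall was that of Bmp1 (probe set 10421361), the proteinase that cuts the C-propeptide from fibrillar procollagens, with 11.65, 11.74 and 11.62 in RD and 10.90, 11.01 and 11.03 in HFD. The diets were far apart at -0.69 ± 0.07 (adjusted p = 0.00143), 1.62-fold lower in HFD, and Bmp1 passed in each of the 6 fits on 5 arrays (largest adjusted p = 0.00994).

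In the list of collagen folding and processing 3 of 20 rose and 1, Bmp1, fell (20% called, against 5.35% of all genes), with a median of 0.07. Pcolce2, an enhancer of that same proteinase, had 7.67, 7.56 and 7.85 in RD and 8.72, 8.49 and 8.19 in HFD and rose by 0.77 ± 0.13 (adjusted p = 0.0176). Bmp1 fell while Pcolce2 rose. Crtap, a cofactor of prolyl 3-hydroxylation, rose by 0.45 ± 0.09 (adjusted p = 0.0253), and Colgalt1, which adds galactose to collagen, by 0.29 ± 0.07 (adjusted p = 0.0429). None of the 3 risers passed when RD replicate 1, RD replicate 2 or HFD replicate 2 was dropped. Over the 6 fits on 5 arrays the largest adjusted p was 0.0714 for Pcolce2, 0.0875 for Crtap and 0.134 for Colgalt1. Crtap also failed when HFD replicate 1 was dropped, and Colgalt1 failed in all 6 of these fits. With the replicate block Crtap (adjusted p = 0.0726) and Colgalt1 (adjusted p = 0.104) did not pass. Of the crosslinking enzymes 1 of 5 rose, the transglutaminase Tgm2 (0.49 ± 0.10, adjusted p = 0.0284), which passed in 1 of the 6 fits on 5 arrays, the fit lacking HFD replicate 3 (largest adjusted p = 0.101), and not with the replicate block (adjusted p = 0.0726). The lysyl oxidases Lox (0.28 ± 0.19, adjusted p = 0.488) and Loxl4 (0.11 ± 0.07, adjusted p = 0.434) did not pass. The crosslinking median was 0.11, and 20% of that list was called.

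Of 15 receptors of collagen and laminin 1 rose, Bcam, a receptor of Lama5 laminins, at 0.47 ± 0.10 (adjusted p = 0.0411), and the median was 0.09. The share called was 6.67%, near the 5.35% of all genes. Of the 6 fits on 5 arrays Bcam passed in the 1 lacking RD replicate 1 (largest adjusted p = 0.136), and it did not pass under quantile normalization (adjusted p = 0.057), array weights (adjusted p = 0.0515) or the replicate block (adjusted p = 0.084). The collagen integrin Itga10 had a difference of -0.28 ± 0.07 (adjusted p = 0.0539), and passed with array weights (adjusted p = 0.0392). Among 25 other matrix proteins 1 rose, the thrombospondin Thbs1, an activator of latent TGF-beta, with 7.503, 7.51 and 7.32 in RD and 8.57, 8.30 and 7.76 in HFD. Its HFD values were widely spread, and the call (0.77 ± 0.18, adjusted p = 0.0476) held in 1 of the 6 fits on 5 arrays, the fit lacking HFD replicate 3, and was lost when every probe set was tested (adjusted p = 0.05). The tenascin Tnc had a difference of 0.49 ± 0.12 (adjusted p = 0.0563). Tnc passed with an intensity trend, with array weights and without HFD replicate 3, with a lowest adjusted p of 0.0208 in the last of these. The list's median was 0.01, and 4% of its genes were called, against 5.35% of all genes.

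Of 18 matrix proteases and inhibitors 2 rose (11.1% called, against 5.35% of all genes), with a median of 0.05. Mmp12, the macrophage elastase, had 6.35, 5.87 and 6.34 in RD and 7.44, 7.58 and 7.03 in HFD, with no overlap, and rose by 1.17 ± 0.17 (adjusted p = 0.0083), 2.24-fold. Timp1, the metalloproteinase inhibitor induced in injured liver, had 6.22, 6.00 and 6.30 in RD and 6.89, 6.68 and 6.69 in HFD, also with no overlap, and rose by 0.58 ± 0.10 (adjusted p = 0.0151). Without RD replicate 1 the Timp1 call was lost (adjusted p = 0.0511), while Mmp12 passed in all 6 fits on 5 arrays (largest adjusted p = 0.0308). Neither was among the brighter genes, those above the median level. Of 22 profibrotic signals and receptors 1 rose, Il13ra1, a receptor chain for interleukins 4 and 13, by 0.45 ± 0.07 (adjusted p = 0.0129). Tgfb1, the central profibrotic cytokine, had 9.03, 9.07 and 9.11 in RD and 9.80, 9.41 and 9.37 in HFD. Every HFD value was above RD, with HFD replicate 1 highest, and the difference of 0.46 ± 0.11 did not pass (adjusted p = 0.057). It passed under quantile normalization, median centring, array weights, an intensity trend or in the brighter genes (adjusted p 0.0317 to 0.0491), and in no fit with an array left out. Ccn2, a matricellular target of TGF-beta, had 10.09, 10.50 and 9.62 in RD and 10.25, 10.05 and 10.36 in HFD and overlapped (0.15 ± 0.20, adjusted p = 0.739). This list's median was 0.13, and 4.55% of its genes were called, against 5.35% of all genes.

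The cells that make fibrillar collagen showed no called marker. Of 13 hepatic stellate cell markers 0 passed in limma, with a median of 0.05, of 7 myofibroblast markers 0 (median 0.06), and of 6 portal fibroblast markers 0 (median -0.02). At an unadjusted p under 0.05 the counts were 0, 0 and 1. Of all genes 5.35% passed and 19.7% had such an unadjusted p. Lrat, the retinol esterifying enzyme of stellate cells, had 9.97, 10.30 and 10.34 in RD and 10.16, 10.18 and 10.09 in HFD (-0.06 ± 0.10, adjusted p = 0.799). Acta2, the smooth muscle actin of myofibroblasts, had 8.70, 9.52 and 9.38 in RD and 9.77, 9.46 and 8.85 in HFD, widely spread in both diets (0.16 ± 0.26, adjusted p = 0.804). The growth factor receptor Pdgfrb had 8.54, 8.63 and 8.84 in RD and 8.68, 8.52 and 8.57 in HFD (-0.08 ± 0.09, adjusted p = 0.702). Cygb and Hand2 of stellate cells (0.15 ± 0.08 and 0.12 ± 0.07), Actg2 and Tpm2 of myofibroblasts (0.22 ± 0.26 and -0.09 ± 0.12) and Mfap4 and Thy1 of portal fibroblasts (-0.22 ± 0.09 and 0.12 ± 0.07) did not pass, with an adjusted p from 0.233 to 0.764.

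Of the cells that line or patrol the sinusoid, endothelial markers did not pass in any of 12 in limma (median 0.06), and 2 had an unadjusted p under 0.05. The latter share was 16.7%, against 19.7% of all genes. The closest were Tek (0.25 ± 0.07, adjusted p = 0.0832) and Cdh5 (0.26 ± 0.08, adjusted p = 0.11), and Tek passed when the brighter genes alone were tested (adjusted p = 0.0362). Kupffer cell markers rose in 5 of 11 (45.5% called, against 5.35% of all genes). All 11 had a positive difference, against 49.2% of all genes, with a median of 0.47. Cd5l rose by 0.85 ± 0.12, Marco by 0.89 ± 0.21, Adgre1 by 0.82 ± 0.17, Timd4 by 0.67 ± 0.11 and C1qb by 0.64 ± 0.13 (adjusted p from 0.00659 to 0.0463). Their count was 1 without RD replicate 1 or 2, 2 without RD replicate 3 or HFD replicate 3, 5 without HFD replicate 1 and 8 without HFD replicate 2, 3 with the replicate block and 4 with array weights. Marco did not pass with array weights (adjusted p = 0.0506) or an intensity trend (adjusted p = 0.0557). The mean log2 level of the list was 9.85 to 9.93 on the RD arrays and 10.18 to 10.73 on the HFD arrays. These values stand beside the rises of Mmp12 and Timp1, and the part of macrophages in those rises was not tested.

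**Figure D4:**
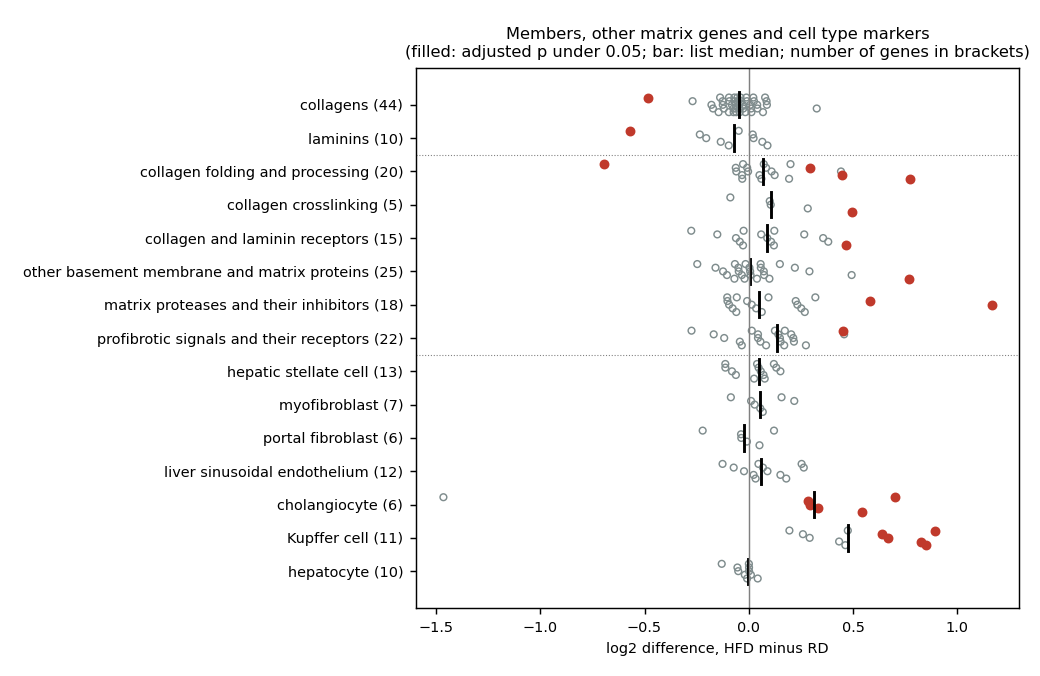
Log2 difference (HFD minus RD, x axis) of each gene of the collagens, the laminins, the 6 lists of other matrix genes and the 7 lists of cell type markers, with filled points for an adjusted p under 0.05 and a bar for each list's median. The collagens centre on -0.05 and the stellate cell markers on 0.05, while the Kupffer cell markers centre on 0.47.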

How the data were processed

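Liver RNA was labelled with a terminal labelling kit for GeneChip arrays, per the labels' protocols, and the authors deposited 1 log2 value per probe set and array. Probe summarisation and normalization were not given in the sources used here, and log2 was read from the range, 2.28 to 14.86. Array medians lay between 7.06 and 7.11. Across genes, arrays of the same diet correlated at r = 0.996 to 0.997 and arrays of different diets at 0.991 to 0.994. Precision is limited by the 3 arrays per diet. The p-values set each difference against the spread between these biological replicates, as moderated by limma over all genes.

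Of 35512 probe sets, 21789 had 1 gene symbol in the platform annotation, which can be old, 1621 had several and 12102 were not listed. The brightest per gene, by mean over 6 arrays, gave 19938 genes, with no dim ones removed. The 54 members had 56 probe sets, and 54 matched a RefSeq gene ID (GRCm38.p6) with 0 symbols changed. limma 3.58.1 in R 4.3.3 (lmFit, eBayes) fitted diet alone to all genes, two-sided, with Benjamini-Hochberg adjustment, a threshold of 0.05 and 95% intervals from the moderated SE. This fit alone was also run on simulated arrays, with changes added to independent noise around each gene's mean. That run did not cover the choice of probe sets, the annotation or the normalization.

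The members and lists were chosen with earlier results of these data known. Given with values are members with an adjusted p under 0.05, chains known in liver matrix and the 6 other members of smallest p. From each list, genes that passed (up to 6) and at least the 2 of smallest p are named, with Lrat, Acta2, Pdgfrb, Tgfb1, Timp1, Ccn2 and Lox. RefSeq promoter windows covered 40 members. The motifs and the 3 windows shown were chosen after the values were seen. Col21a1, Lamb4, Fkbp10, Adamts2, Loxl2, Gp6, Fbn1, Efemp2, Mmp15, Spp1 and Ass1 were not analysed here. The fits were repeated with quantile normalization, with median centring, on the brighter genes, on means over a gene's probe sets, on every probe set, with an intensity trend and robust prior, with array weights, with a replicate block and on 5 arrays at a time. When every probe set was tested, the one with the smallest p stood for its gene.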

Additional observations from a re-analysis of the deposited data

How the results depend on the processing

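The falls of Col18a1 and Lama3 passed under each alternative that tested them, while the brighter genes alone kept 30 members, left out Lama3 and so gave 1 lower member. Members higher numbered 1 in place of 0, Col12a1, under quantile normalization, median centring and array weights, and 0 to 1 with an array left out. Members lower numbered 2 in each fit with an array left out. Other matrix genes higher numbered 3 to 8 with an array left out and 5 with the replicate block, and other matrix genes lower numbered 2 with array weights. The median difference of the members stayed between -0.08 and -0.02. With the replicate block 563 genes were called in place of 1067, and the members called were the same 2. Deviations of same-numbered arrays correlated at -0.107, 7.2e-05 and 0.117, and those of differently numbered arrays at -0.12 to 0.13. Not every array correlated best with its own number. Deviations from a mean of 3 arrays are tied to each other, so these values cannot decide whether the numbers pair the arrays. Genes never called changed sign with the setting: Col1a1 -0.0001 (quantile normalization), Col4a4 0.0013 (quantile normalization), Col4a4 0.0043 (median centring), Col5a3 0.0091 (median centring), Col6a1 -0.0079 (quantile normalization), Col6a1 -0.0023 (array weights), Col6a5 0.1215 (mean of all probe sets), Col6a5 0.2863 (every probe set), Col6a6 0.0027 (mean of all probe sets). With an array left out the differences ran as follows, crossing zero: Col1a1 -0.0250 to 0.0700, Col4a1 -0.0009 to 0.0965, Col4a4 -0.1093 to 0.0701, Col5a1 -0.0661 to 0.0253, Col5a3 -0.0757 to 0.0458, Col6a1 -0.0216 to 0.0416, Col6a2 -0.0722 to 0.0109, Col6a3 -0.0542 to 0.0663, Col6a5 -0.0849 to 0.0344, Lama2 -0.0870 to 0.0264, Lamb2 -0.0259 to 0.0552, Lamc1 -0.0031 to 0.1053, Acta2 -0.0934 to 0.4109, Ccn2 -0.0740 to 0.3672, Lrat -0.1763 to 0.0044, Pdgfrb -0.1483 to 0.0052, Tpm2 -0.2053 to 0.0031. Col6a5 and Col6a6 each have a dimmer probe set, at 0.29 and 0.04, which entered the mean of all probe sets. In the fit on every probe set, the value of Col6a5 is that of its dimmer probe set. Apart from these settings and from Lama3 among the brighter genes, the cause of these changes was not tested.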
